A study of Mus musculus with 65 samples.

Results

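The 10 genes Egr1, Fos, Fosb, Jun, Junb, Arc, Nr4a1, Ier2, Dusp1 and Npas4, a set of immediate early genes, were followed through bulk RNA sequencing of the retina of 65 mice. They were found by symbol among the 50686 genes of the count table, and all 10 were present. The set was selected on the counts of Egr1 in one group, DEP10, which were high in earlier results of these data, and the other 9 genes were listed with it by name. The values of Egr1 in DEP10 are therefore a description here, without a test.

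All mice were adult wild-type C57BL/6J mice on an AIN-76A diet. The CD group (n = 5) received the control diet, and 1 of its 2 re mice, replicate 2M, has the mark 2M in its label, as the REPOP60 mice do. The groups DEP2, DEP7, DEP10, DEP14 and DEP21 (n = 4 each) and DEP5 (n = 3) received the same diet with PLX5622, an inhibitor of the receptor CSF1R that microglia need to survive, for the number of days in the name. REPOP3, REPOP5, REPOP10, REPOP14 and REPOP21 (n = 4 each) and REPOP7 (n = 6) were returned to control diet after 14 days of PLX5622, for the number of days in the name. REPOP60 (n = 4) had 2 months of repopulation by its labels. LPSCD (n = 3) received lipopolysaccharide (LPS), a bacterial cell wall component that activates microglia, on control diet, and LPSREPOP (n = 4) received it after PLX5622 and repopulation, for a time that the labels do not give. Sample titles end in RE (39 mice) or re (26 mice). REPOP60 and both LPS groups were all re, DEP5 was all RE, and the other 12 groups held both. The titles also hold a number, which begins with 0, 1 or 2 among re mice and with 0 among all RE mice but DEP10 replicate 3 (3) and REPOP10 replicate 3 (Q). The meaning of the suffix and of the number is not stated in the sources used here. Retinas were taken into cold buffer from mice under chloral hydrate and frozen, and neither the time of day nor the light before harvest is given.

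Libraries held between 5106429 and 8760443 counted reads (median 7944665), RE libraries between 7572657 and 8760443, and re libraries between 5106429 and 8097293. A count of 3, taken as the floor, equals between 0.342 and 0.587 CPM (counts scaled to the size of the library), which covers counting error only. The microglia markers followed the labels. Their summed level was between 45.2 and 60.01 CPM in CD, between 7.46 and 11.3 CPM in DEP10, and 11 of the 12 markers differed among the groups of RE mice at a false discovery rate (FDR, edgeR) under 0.05. Photoreceptor genes, as in any whole retina, were abundant, with a summed level of the 10 rod and cone markers of at least 44138 CPM in each CD mouse. In bulk tissue, fewer cells that use a gene and less of its RNA per cell cannot be told apart.

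On GRCm38 (GENCODE M21), Egr1 lies on the plus strand at chr18:34859823-34864984, Fos on the plus strand at chr12:85473890-85477273 and Fosb on the minus strand at chr7:19302696-19310051. Jun is at chr4:95049034-95052222 and Junb at chr8:84974484-84978718, both on the minus strand. Nr4a1 is on the plus strand at chr15:101254269-101274795, and Arc on the minus strand of the same chromosome at chr15:74669083-74672570. Ier2 at chr8:84661331-84662852, Dusp1 at chr17:26505590-26562128 and Npas4 at chr19:4984355-4990316 are on the minus strand. Jun overlaps the antisense gene Junos, the end of Junb overlaps Prdx2, and the long form of Dusp1 overlaps Ergic1, all on the opposite strand. Within Dusp1 also lie Gm8225 on the opposite strand and AC122252.4 and AC122252.1 on the same strand. It is not stated whether counting used the strand, which would not separate the genes on the same strand. Reads in the shared stretches therefore cannot be assigned with certainty.

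Immediate early genes are transcribed within minutes of a stimulus to the cell, such as synaptic activity, light, a growth factor or tissue handling, without the need for new protein. Calcium and cAMP signals reach them through the factor CREB, which binds cAMP response elements, and growth factor signals through the serum response factor, which binds CArG boxes. Several members are transcription factors. Egr1 is a zinc finger factor that binds GC-rich sites, Fos and Fosb pair with Jun and Junb to form AP-1, Nr4a1 is an orphan nuclear receptor, and Npas4 is a factor induced in neurons by calcium entry. Dusp1 is a phosphatase that switches MAP kinases off, Ier2 is a small nuclear protein, and Arc acts in the cytoplasm at synapses, where it promotes removal of glutamate receptors. In the retina, Egr1 is known to respond to visual stimulation in amacrine cells.

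The 250 bases before the RefSeq transcription start (GRCm38.p6) are shown for Fos, Nr4a1, Dusp1, Junb and Jun. Among RE mice the first 4 correlated with one another from mouse to mouse (Pearson r from 0.46 to 0.80, below), and Jun did not follow them. Among re mice Jun did follow Junb (0.76) and Nr4a1 (0.60), and Fos and Junb had an r of only 0.16. Each sequence is written 5′ to 3′ on the strand of the gene. The core of the cAMP response element is in capitals, as TGACG, or CGTCA where it is on the other strand. The windows are chr12:85473640-85473889 (Fos, plus strand), chr15:101266596-101266845 (Nr4a1, plus strand, where the RefSeq start lies inside the GENCODE gene), chr17:26508473-26508722 (Dusp1, minus strand, likewise inside), chr8:84978749-84978998 (Junb, minus strand) and chr4:95052223-95052472 (Jun, minus strand).
Fos: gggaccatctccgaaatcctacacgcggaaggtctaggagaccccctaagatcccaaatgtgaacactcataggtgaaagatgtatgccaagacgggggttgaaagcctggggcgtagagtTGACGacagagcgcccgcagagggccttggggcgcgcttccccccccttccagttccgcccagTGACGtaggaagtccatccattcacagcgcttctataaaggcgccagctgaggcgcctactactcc
Nr4a1: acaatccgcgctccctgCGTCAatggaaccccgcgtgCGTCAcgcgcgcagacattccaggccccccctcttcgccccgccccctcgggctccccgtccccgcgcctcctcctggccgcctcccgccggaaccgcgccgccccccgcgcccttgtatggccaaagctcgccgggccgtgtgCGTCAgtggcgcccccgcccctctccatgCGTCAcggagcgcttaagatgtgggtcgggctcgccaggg
Dusp1: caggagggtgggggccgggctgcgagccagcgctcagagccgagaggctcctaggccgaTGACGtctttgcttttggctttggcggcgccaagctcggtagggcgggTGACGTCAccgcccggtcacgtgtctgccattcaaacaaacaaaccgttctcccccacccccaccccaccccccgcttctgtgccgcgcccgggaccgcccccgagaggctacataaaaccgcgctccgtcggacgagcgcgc
Junb: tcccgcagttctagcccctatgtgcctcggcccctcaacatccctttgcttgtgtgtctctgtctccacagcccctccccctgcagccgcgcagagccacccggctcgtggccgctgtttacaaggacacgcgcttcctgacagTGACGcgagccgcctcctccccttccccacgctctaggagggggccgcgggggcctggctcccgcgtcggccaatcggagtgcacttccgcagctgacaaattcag
Jun: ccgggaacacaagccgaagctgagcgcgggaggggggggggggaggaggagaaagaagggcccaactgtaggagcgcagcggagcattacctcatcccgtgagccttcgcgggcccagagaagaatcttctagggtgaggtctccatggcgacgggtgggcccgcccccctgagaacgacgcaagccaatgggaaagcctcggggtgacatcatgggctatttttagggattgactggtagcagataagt

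This core, on either strand, was found in 6 of the 7 members with a promoter sequence, and in 17.7% of all 32817 promoters of this length. There were 4 matches in Nr4a1, 3 in Dusp1, 2 in each of Fos and Npas4 and 1 in each of Fosb and Junb, and these letters were not in the window of Jun. Of the 3 matches in Dusp1, which count both strands, 2 fall on the full palindrome TGACGTCA, which was present in 1.55% of all promoters and in no other member. A GCGGGGGCG site, the binding sequence of Egr1 and its relatives, was found in Fosb and Nr4a1 and in 2.57% of all promoters. TATAAA was found in Fos and in 12.4% of all promoters. A CArG box was in the window of none of the 7 members and of 1.47% of all promoters. Bases farther upstream were not searched. The matches describe the sequence and were not tested as binding sites. Egr1, Arc and Ier2 had no entry.

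Per transcript length, in the deposited FPKM (fragments scaled to transcript length and library size), the most abundant member was Nr4a1, with a median over 65 mice of 21.3 FPKM (12.2 to 37.5). Fos followed with 16.1 FPKM (9.12 to 29.9), Egr1 with 13.4 FPKM (5.72 to 39.4) and Dusp1 with 12.96 FPKM (8.46 to 20.9). Jun had a median of 11.2 FPKM (8.52 to 19.0), Junb 10.3 FPKM (6.69 to 32.5) and Ier2 8.38 FPKM (5.58 to 15.7). These 7 levels overlapped from mouse to mouse, so that neighbours in the order are not separated by their spread. The members known best from forebrain neurons were the lowest, with Npas4 at 3.02 FPKM (2.28 to 4.55), the AP-1 subunit Fosb at 1.55 FPKM (0.931 to 4.63) and Arc at 0.575 FPKM (0.282 to 0.892). Npas4 and Fosb overlapped each other, while Npas4 lay below Ier2 and Arc below Fosb in every mouse of the study. Arc rested on between 6 and 24 reads per mouse, so that only large differences were detectable for it.

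The members differed in how much they varied among mice of the same group. Among the RE mice (13 groups of 3), the within-group SD of log2(CPM + 1) was 0.48 for Egr1, which exceeded that of 99.5% of 15758 genes with a mean of at least 1 CPM. It was 0.33 for Fos (above 95.2% of genes), 0.29 for Nr4a1 (above 88.9%) and 0.12 for Jun (above 19.9%), against a median of 0.17 over all genes. Between the lowest and the highest RE mouse, Egr1 spanned a factor of 5.13, Fos 3.38, Nr4a1 3.13 and Jun 1.53. Group means held 55.04% of the variance of Egr1 and 41.5% of that of Fos among these mice, and 32.7% for the median gene. The DEP10 mice, on which Egr1 was singled out, enter its span and its variance share, and DEP10 replicate 2 was its highest RE mouse. Both values of Egr1 are therefore a description.

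**Figure D1:**
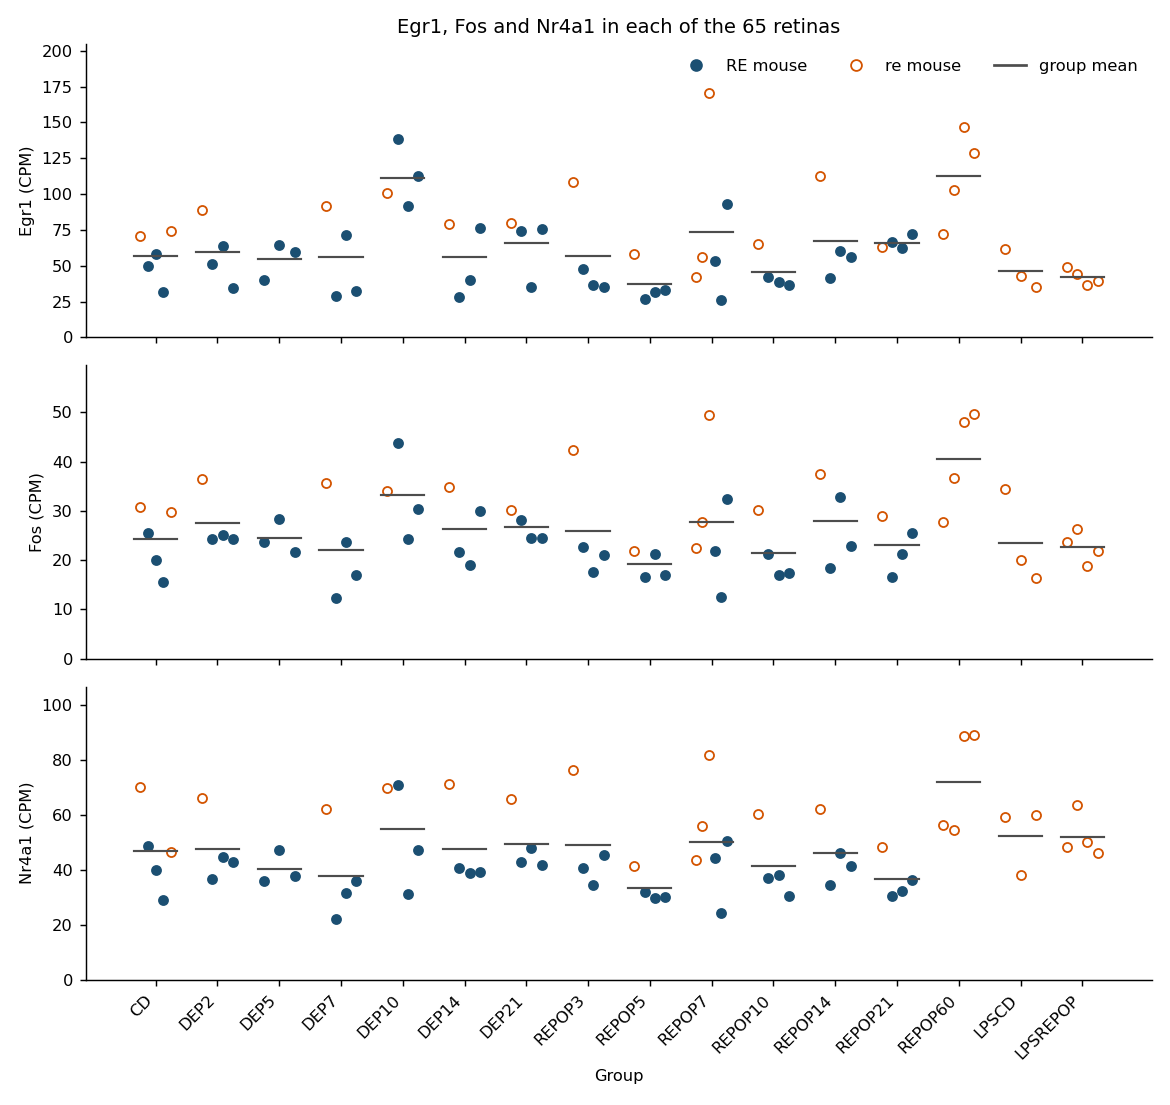
Level of Egr1, Fos and Nr4a1 in CPM (vertical axes, from 0) in every mouse, by group (horizontal axis), with RE mice as filled and re mice as open points and a line at each group mean. Egr1 ranged from 26.2 to 138.6 CPM among RE mice, and its values were high in DEP10 and in REPOP60, where the 4 mice lay between 71.9 and 146.7 CPM.

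The first question was whether the members changed with depletion of microglia. In CD, the RE mice had 50.1, 57.9 and 31.7 CPM of Egr1 and the re mice 70.6 and 73.9 CPM. In DEP10, the RE mice had 138.6, 91.9 and 112.4 CPM and the re mouse 100.8 CPM. Each DEP10 mouse thus lay above each CD mouse, with a log2 fold change of 1.05 (standard error 0.14) in a fit with the title suffix as a covariate, and between 0.87 and 1.30 in 9 fits without 1 mouse. Among all genes tested in this comparison 0.572% were higher without overlap. Nothing is read from it, since Egr1 was singled out for this group.

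By mean level among RE mice, DEP10 came first with 114.3 ± 23.4 CPM of Egr1 (SD, n = 3), followed by REPOP21 with 67.0 ± 4.8 CPM and DEP21 with 61.6 ± 23.0 CPM. CD was in the lower part of the order with 46.5 ± 13.4 CPM, and REPOP5 was last with 30.5 ± 3.0 CPM. The range of each group overlapped that of the next in the order from REPOP21 to REPOP10, whereas DEP10 (lowest mouse 91.9 CPM) lay above REPOP21 (highest mouse 72.1 CPM) and REPOP5 (highest mouse 32.7 CPM) below REPOP10 (lowest mouse 36.8 CPM). Of the neighbours of DEP10 in time, DEP7 had 29.1, 71.3 and 32.2 CPM and DEP14 had 28.0, 40.3 and 76.7 CPM in RE mice, so both groups spread around the values of CD and neither reached DEP10.

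Fos had 43.8, 24.4 and 30.5 CPM in the RE mice of DEP10 and 34.0 CPM in the re mouse, against 25.4, 20.0 and 15.6 CPM in the RE mice and 30.8 and 29.7 CPM in the re mice of CD. The groups overlapped, and the log2 fold change was 0.53 (standard error 0.14) with an FDR of 0.332 (edgeR). Nr4a1 changed by 0.32, Dusp1 by 0.28, Junb by 0.13 and Fosb by -0.25 on the log2 scale in DEP10, none of which passed the test. Beside Egr1 in DEP10, 0 of the other 59 values of the members in the 6 depletion groups was a DEG, which asks for an edgeR FDR under 0.01 together with a log2 fold change beyond 1 in size. These values ran from -0.50 to 0.53, the lowest FDR was 0.332 (Fos in DEP10), and 6 of the 59 had an unadjusted p under 0.05, as did 5.36% of all genes. The share of all genes that were DEGs ran from 0.0345% in DEP5 through 0.0419% in DEP14, 0.0501% in DEP2, 0.0585% in DEP10 and 0.0625% in DEP7 to 0.0884% in DEP21. Among the values that moved beside Egr1 in DEP10, the cathepsin gene Ctss, a microglia marker, fell by 5.76 on the log2 scale, and 10 of the 12 microglia markers were DEGs that fell. The part of the lost microglia in the level of Egr1 was not tested.

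In the 7 repopulation groups, 0 of 70 values of the members was a DEG. They ran from -0.51 to 0.64 on the log2 scale, with 11 at an unadjusted p under 0.05 (7.61% of all genes) and a lowest FDR of 0.148 (Junb in REPOP21, edgeR). The share of all genes that were DEGs ran from 0% in REPOP14 and REPOP60 through 0.0377% in REPOP3, 0.0504% in REPOP5, 0.0548% in REPOP21 and 0.0678% in REPOP7 to 0.0838% in REPOP10. The lowest value of Egr1 was in REPOP5, where the RE mice had 27.1, 31.8 and 32.7 CPM and the re mouse 58.3 CPM. The highest was in REPOP60, with 71.9, 102.6, 146.7 and 128.6 CPM, against 70.6 and 73.9 CPM in the re mice of CD. There the log2 fold change of 0.64 (standard error 0.16) had an FDR of 0.756. Over the 13 comparisons with CD, Egr1 was positive in 11, Fos and Jun in 10 and Nr4a1 in 9, while Junb was positive in 5, Arc and Npas4 in 4 and Fosb in 2. All share the CD mice, so a low or high CD mouse moves each of these values together.

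**Figure D2:**
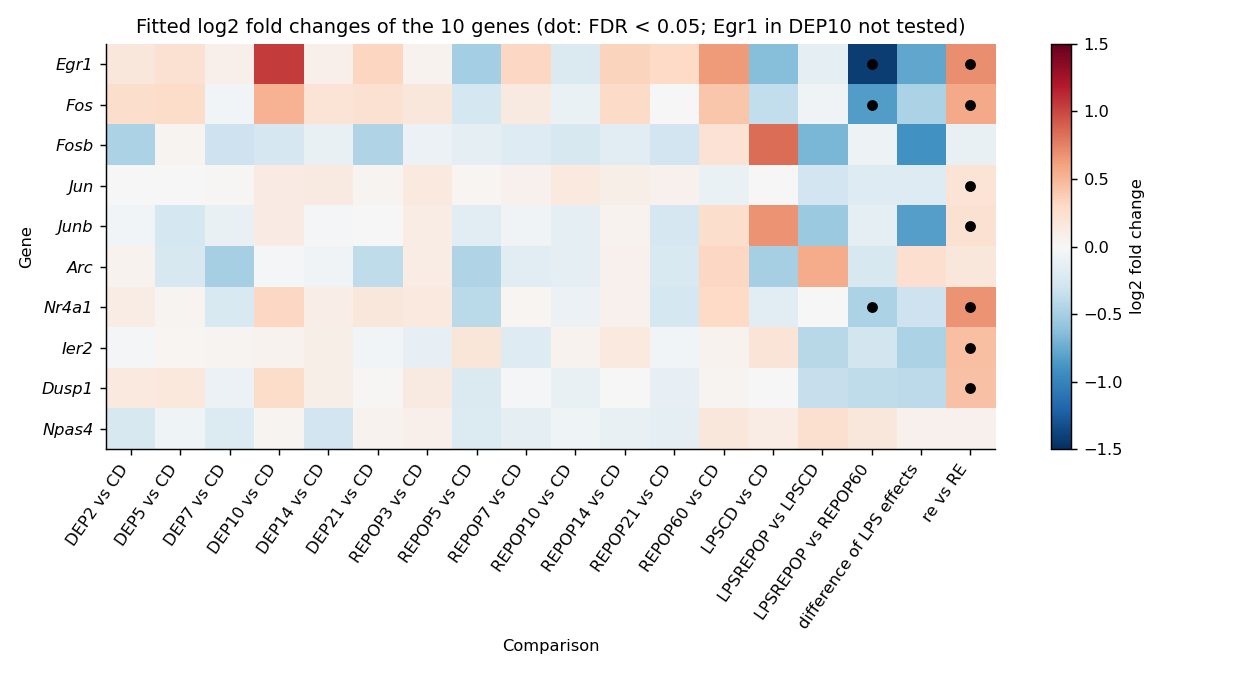
Heat map of the log2 fold change (colour) of each of the 10 members (rows) in every comparison made (columns), with a dot where the edgeR FDR was under 0.05 (Egr1 in DEP10 was not tested). The depletion and repopulation groups hold no dot, and beside Egr1 in DEP10 (1.05) their values lie between -0.51 and 0.64.

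A test of all groups together was made among the 39 RE mice, where the suffix is constant and each of 13 groups has 3 mice. Of the members, 0 passed an FDR of 0.05 (edgeR), where 0.210% of 26715 genes did. Egr1 came closest with an FDR of 0.0593, Fos had 0.825, and the others had 0.869 or more. At an unadjusted p under 0.05 were Egr1 (0.000136), Fos (0.0275), Dusp1 (0.036) and Nr4a1 (0.0461), against 5.41% of all genes. Egr1 passed in 31 of 39 fits that left out 1 mouse with all steps repeated, but in 6 of 39 when the genes and the dispersion trend of all mice were kept. This test holds the DEP10 mice on which Egr1 was singled out, so its values for Egr1 are a description. Without DEP10, 0 of the 4 had an unadjusted p under 0.05, with 0.0946 for Egr1 (FDR = 0.908), 0.231 for Fos, 0.145 for Dusp1 and 0.0513 for Nr4a1.

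The second question was whether LPS moved the members. All LPS mice were re, so the comparisons here are within that suffix or take it as a covariate. Egr1 was lower in LPSREPOP than in REPOP60. It had 48.8, 44.2, 36.4 and 39.3 CPM in LPSREPOP, against 71.9, 102.6, 146.7 and 128.6 CPM in REPOP60, so that the groups did not overlap. The log2 fold change was -1.42 (standard error 0.13, edgeR FDR = 1.46e-07), and Egr1 was the only member that was a DEG, where 0.437% of 24927 genes were DEGs and 0.0441% were lower ones. It remained one in each of 8 fits that left out 1 mouse, with values from -1.58 to -1.26. The reference REPOP60 itself had high values of Egr1, with a log2 fold change of 0.64 against CD (edgeR FDR = 0.756). Its level enters this difference. The LPSREPOP mice lay below the re mice of CD and within the range of its RE mice.

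Fos had 23.7, 26.3, 18.9 and 21.8 CPM in LPSREPOP and 27.8, 36.6, 48.0 and 49.7 CPM in REPOP60. The groups again did not overlap, as for 7.98% of all genes in either direction, and the log2 fold change was -0.84 (standard error 0.13, edgeR FDR = 0.000246). Its FDR was under 0.05 without any 1 mouse. Nr4a1 had 48.5, 63.7, 50.1 and 46.2 CPM in LPSREPOP and 56.2, 54.5, 88.7 and 88.9 CPM in REPOP60, with overlap and a log2 fold change of -0.47 (standard error 0.12, edgeR FDR = 0.0328). That call was kept in 3 of 8 fits without 1 mouse. It was lost without LPSREPOP replicate 1, 3 or 4 or REPOP60 replicate 3 or 4, with an FDR of up to 0.325, and also with DESeq2 (0.336), with filterByExpr (0.0903) and with all 16 groups in one fit (0.222). With Nr4a1, 3 of 10 members were lower at an FDR under 0.05, where 1.05% of genes were, and 0 was higher.

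Both groups hold mice whose title number begins with 0 (replicates 3 and 4 of REPOP60, 1 and 4 of LPSREPOP) and with 1. The LPSREPOP mice had less Egr1 than the REPOP60 mice within each number series, with 48.8 and 39.3 against 146.7 and 128.6 CPM in the first and 44.2 and 36.4 against 71.9 and 102.6 CPM in the second. In Nr4a1 the groups were apart in the first series (48.5 and 46.2 against 88.7 and 88.9 CPM) and overlapped in the second (63.7 and 50.1 against 56.2 and 54.5 CPM). With the series as a term the log2 fold change was -1.39 for Egr1 (FDR = 0.00545), still a DEG among 10 in all, -0.82 for Fos (FDR = 0.0398) and -0.45 for Nr4a1 (FDR = 0.276, all edgeR), so that Nr4a1 did not pass.

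The other members did not pass in this comparison. Dusp1 changed by -0.38 (FDR = 0.137), Ier2 by -0.28 (FDR = 0.342), Jun by -0.20 (FDR = 0.249) and Junb by -0.15 (FDR = 0.621, all edgeR), and Npas4 was higher by 0.17 without passing. The median of the 10 members was -0.26 on the log2 scale, and that of all genes tested was -0.01.

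Other genes moved between the same groups. Of the 12 microglia markers, 5 were DEGs that were higher in LPSREPOP (C1qa, C1qb, C1qc, Ctss and Laptm5), and their summed level was between 52.2 and 90.2 CPM there and between 33.8 and 45.4 CPM in REPOP60. Of 10 genes that respond to glucocorticoids, stress hormones, 3 were higher DEGs, namely the metallothionein genes Mt1 (1.06 on the log2 scale) and Mt2 (1.246) and the acute phase gene Lcn2 (3.61), with a summed level between 528.5 and 733.1 CPM in LPSREPOP and between 462.2 and 521.8 CPM in REPOP60. The summed level of the 8 pigment epithelium markers was between 153.3 and 280.0 CPM in LPSREPOP and between 300.8 and 332.8 CPM in REPOP60, yet 4 of the 8 had a positive log2 fold change, with a median of 0.07, and only Rlbp1, a gene that Mueller glia use too, was lower at an FDR under 0.05 (-0.57). The rod and cone markers summed to between 43604 and 52483 CPM against between 53444 and 54635 CPM, with Nr2e3 (0.43) and Opn1mw (0.32) higher and Arr3 (-0.56) lower at an FDR under 0.05. Of the Mueller glia and astrocyte markers Gfap (1.076, FDR = 0.041) and Vim (0.74) were higher and Rlbp1 lower. Of the 7 blood cell markers, the haemoglobin gene Hbb-bs was a DEG that was lower (-2.89), and the neutrophil genes S100a8 and S100a9 were higher DEGs. S100a8 had 11, 2, 22 and 2 reads in LPSREPOP and 0 in each REPOP60 mouse, and S100a9 had 16, 6, 43 and 4 reads against 2, 0, 2 and 0. Of the microglia markers Aif1 was at 0 in some LPSREPOP mice, and none of the pigment epithelium or the rod and cone markers was at 0. The 10 heat shock genes and the 16 clock genes held 0 genes at an FDR under 0.05 in this comparison. The part of the cell makeup or of stress hormones in the values of Egr1 and Fos was not tested, and the time of repopulation is not given for LPSREPOP.

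In retinas with resident microglia the change under LPS did not pass. LPSCD had 61.8, 42.9 and 35.2 CPM of Egr1, each lower than the 70.6 and 73.9 CPM of the re mice of CD, while the RE mice of CD had 31.7 to 57.9 CPM. With the suffix as a covariate the log2 fold change was -0.64 (standard error 0.22, edgeR FDR = 0.343). As all LPSCD mice were re, this value rests on the re mice of CD, 1 of them marked 2M. Of the members 0 was a DEG in LPSCD vs CD, as was 0% of all genes, with 2 members (Egr1 and Junb) at an unadjusted p under 0.05 and 10.5% of all genes. The paper, with the same thresholds in its own fit, reported higher and lower DEGs under LPS with resident microglia. In the fit used here even Lcn2, higher by 3.62 on the log2 scale, had an FDR of 0.155 (edgeR). The 0 calls therefore do not show that LPS left the members unchanged. The AP-1 subunits Junb and Fosb went the other way from Egr1. Junb had 30.7, 34.2 and 62.5 CPM in LPSCD, above each CD mouse (24.9 to 27.5 CPM) as for 6.43% of all genes, with a log2 fold change of 0.68 and an FDR of 0.339. Fosb had 4.78, 7.63 and 18.3 CPM, and the highest value came from the same mouse, LPSCD replicate 3, which also had the highest Jun (66.0 CPM) and Ier2 (24.8 CPM) of all 65 mice.

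Taking all re mice of the study, the 7 given LPS had between 35.2 and 61.8 CPM of Egr1 (median 42.9), and the 19 not given LPS between 42.5 and 170.7 CPM (median 79.8). Title numbers beginning with 2 occurred only among the mice without LPS, so LPS and number series are mixed in this description. The mice without LPS come from many groups, and the DEP10 mouse and the high REPOP60 mice are among them. No member passed between LPSREPOP and LPSCD (lowest FDR 0.617, edgeR), where Junb, Ier2 and Dusp1 had an unadjusted p under 0.05 (8.05% of all genes) and 0% of all genes were DEGs. Dusp1 had 25.8, 23.2, 22.8 and 23.0 CPM in LPSREPOP, below the 31.4, 26.0 and 33.0 CPM of LPSCD. As many as 2.97% of all genes were lower without overlap there. The difference between the LPS changes of repopulated and resident retinas was tested among re mice. It was -0.78 for Egr1 (standard error 0.24, unadjusted p = 0.00287 and FDR = 0.845 by edgeR), -0.90 for Fosb and -0.83 for Junb. Of the members 0 passed, as did 0% of all genes, and 4 (Egr1, Fosb, Junb and Ier2) had an unadjusted p under 0.05, as did 5.63% of all genes. Without LPSCD replicate 1, 2 members were DEGs, Fosb (-1.24, FDR = 0.00409) and Junb (-1.01, FDR = 4.12e-05), among 158 of 28142 genes, so 1 library decided this count.

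**Figure D3:**
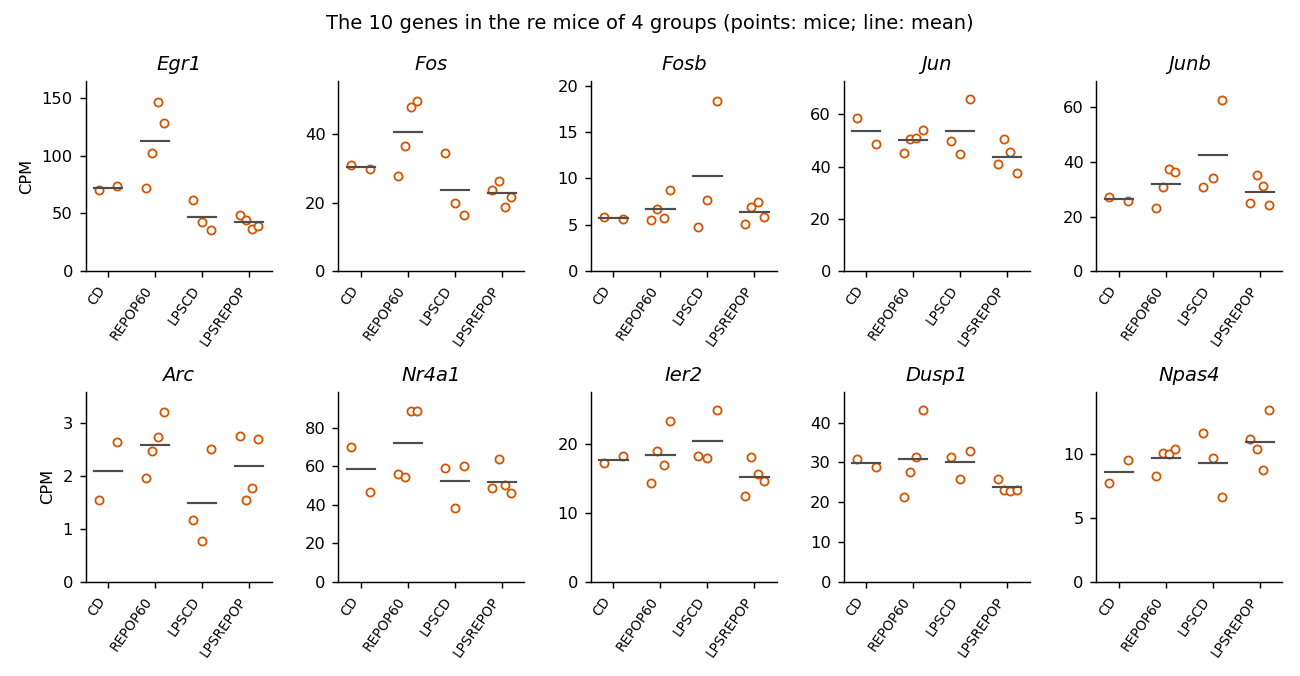
Level in CPM (vertical axes, from 0) of each of the 10 members in the re mice of CD, REPOP60, LPSCD and LPSREPOP, with a point for each mouse and a line at the mean. The 4 LPSREPOP mice lie below the 4 REPOP60 mice in Egr1 (36.4 to 48.8 against 71.9 to 146.7 CPM) and in Fos, and LPSCD replicate 3 stands high in Fosb (18.3 CPM) and Junb (62.5 CPM).

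The values were then split by title suffix. In the 12 groups that held both, with the group in the fit, Nr4a1 was higher in re mice by 0.68 on the log2 scale (standard error 0.08, edgeR FDR = 2.8e-11), Egr1 by 0.70 (standard error 0.13, FDR = 9.36e-06) and Fos by 0.57 (standard error 0.09, FDR = 4.12e-07). Ier2 was higher by 0.45, Dusp1 by 0.44, Junb by 0.22 and Jun by 0.21, and these passed an FDR of 0.05 as well. Fosb (-0.12, FDR = 0.314), Arc (0.17, FDR = 0.278) and Npas4 (0.07, FDR = 0.507) did not. None of the 10 reached the fold threshold of a DEG, which 3.29% of 27571 genes did. The 7 members that were higher at an FDR under 0.05 stand against 23.8% of all genes, and the median of the 10 members was 0.33 on the log2 scale against 0.04 for all genes. Each of the 7 passed in all 51 fits that left out 1 mouse, with the genes and the dispersion trend of all mice kept.

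The direction was shared by nearly all groups. Except CD and REPOP7, each of these 12 groups held only 1 re mouse, set against 3 RE mice. The re title numbers here began with 2 except in CD replicate 2M and REPOP7 replicate 3, so suffix and number series mostly coincide. The re mean exceeded the RE mean in 12 of 12 groups for Fos, Junb, Nr4a1 and Dusp1, in 11 for Ier2, in 10 for Egr1 and in 9 for Jun, but in 7 for Arc, 6 for Npas4 and 5 for Fosb. It did so in at least 11 groups for 21.6% of all genes. Every re mouse lay above every RE mouse of its group in 10 groups for Fos, and in 9 for each of Egr1, Nr4a1, Ier2 and Dusp1, where 14.3% of all genes did so in at least 9. It did in 8 groups for Jun, which was the other way in 1, in 6 for Junb, in 5 for Npas4, in 4 for Arc (the other way in 2) and in 3 for Fosb (the other way in 3). Among RE mice Egr1 had between 26.2 and 138.6 CPM (median 50.1).

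The suffix moved with much else. At an FDR under 0.05, 46.6% of all genes differed by suffix, and re libraries were smaller, with a median of 7556329 reads against 8186438. Of the 10 heat shock genes, 5 were lower in re mice (Hspa8, Hsph1, Hsp90aa1, Hspd1 and Hspe1) and 0 was higher, with a median of -0.26 on the log2 scale. Of the 16 clock genes, 9 were higher and 4 (Nr1d2, Arntl, Clock and Cry1) lower, with Ciart at 0.64, Dbp at 0.49 and Per1 at 0.19. Of the 7 blood cell markers, 4 were DEGs that were lower (Hbb-bs, Hbb-bt, S100a8 and S100a9). Library preparation, sequencing, time of day and handling cannot be told apart as sources of the suffix difference, and their part in the members was not tested.

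The last question was whether the members moved together within single mice once group means were taken out. Among the 39 RE mice, Fos and Nr4a1 had the highest Pearson r of the 45 pairs of members, 0.80 (Spearman's rho 0.72, permutation p = 7e-05), and Nr4a1 was the gene closest to Fos of 15757. Without the 2 mice farthest from the median, r was 0.74. Each pair was corrected only over the genes correlated with the member listed first in the opening sentence. Over all genes correlated with Fos the FDR was 0.21, so the pair did not pass that correction. It was not corrected over the genes correlated with Nr4a1, where a larger permutation p of 0.00026 (Dusp1) had an FDR of 0.047. Egr1 and Fos had an r of 0.74 (rho 0.67, permutation p = 7e-05, FDR = 0.55), also 0.74 without the 2 farthest mice, and Fos ranked 2 among all genes for Egr1.

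Dusp1 followed both. Its r was 0.77 with Nr4a1 (rho 0.66, permutation p = 0.00026, FDR = 0.047), 0.73 with Fos and 0.65 with Junb. The pair of Nr4a1 and Dusp1 passed the correction, and so did 1.44% of all genes paired with Nr4a1. Dusp1 and Npas4 passed too, at a lower r of 0.48 (rho 0.57, permutation p = 0.00077, FDR = 0.028), where 11.6% of all genes paired with Dusp1 passed. Fos and Dusp1 had a smaller permutation p of 0.00059 but an FDR of 0.316, corrected over the genes paired with Fos. Which pairs passed thus depends on the member whose genes were used for the correction. Junb and Nr4a1 had an r of 0.64, Arc and Dusp1 0.55 and Egr1 and Nr4a1 0.50. In all, 8 of the 45 pairs had an r above 0.5, which is 17.8%, against 2.63% of the pairs of a member with any gene. The median r of the 45 pairs was 0.26, and 36 were positive. Jun stood apart, with an r of -0.12 with Egr1 and -0.33 with Fos. The count was 5 without the 2 mice farthest from the median in the mean level of the 10 members, 4 when the 2 mice were chosen for each pair by its first gene, and between 6 and 10 without any 1 mouse.

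**Figure D4:**
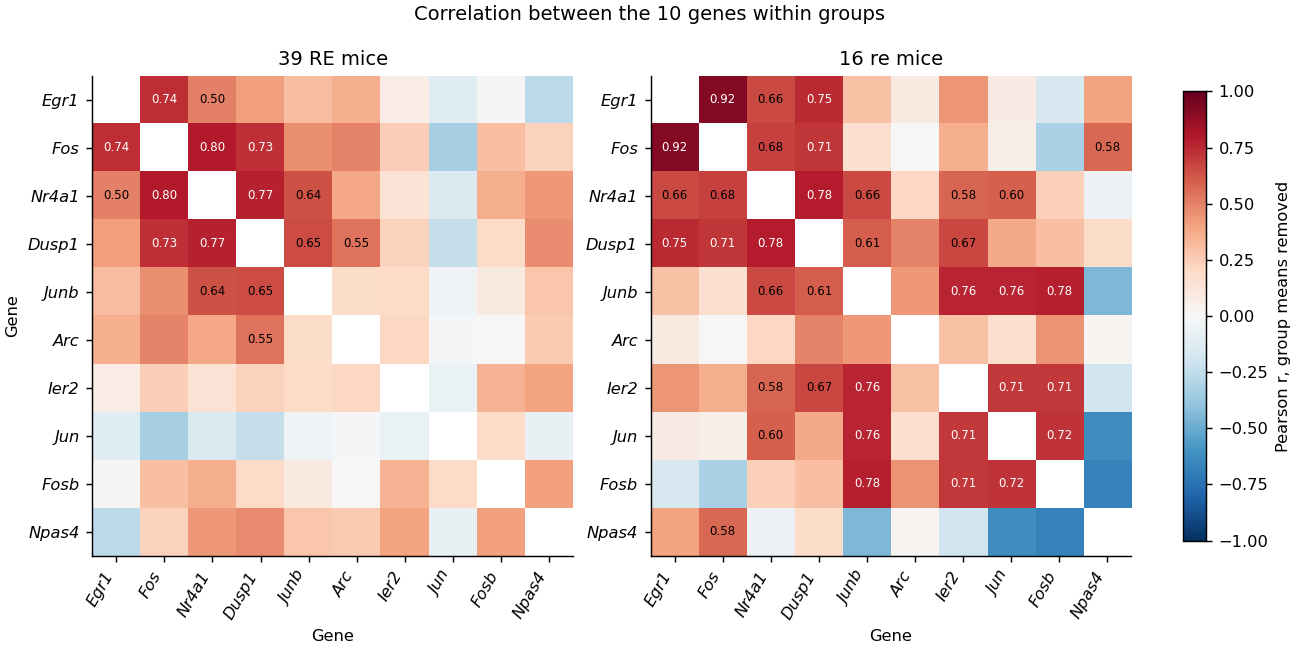
Pearson r of every pair of members after removal of group means, for 39 RE mice and 16 re mice. Among RE mice the highest pairs are Fos with Nr4a1 (0.80), Nr4a1 with Dusp1 (0.77) and Egr1 with Fos (0.74), and Egr1 with Junb is low (0.31). Among re mice Egr1 with Fos is the highest (0.92), and the pairs of Fosb, Jun, Junb and Ier2 (0.71 to 0.78) drop to between 0.37 and 0.72 without the 2 farthest mice.

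The same measure in the 16 re mice of CD, REPOP7, REPOP60, LPSCD and LPSREPOP, which were not part of the above, gave 18 of 45 pairs with an r above 0.5, which is 40.0%, against 8.17% of the pairs of a member with any gene. Egr1 and Fos had an r of 0.92 (rho 0.97, permutation p = 0.0004, FDR = 0.95), 0.95 without the 2 farthest mice, and Fos was the gene closest to Egr1 of 16030. Nr4a1 and Dusp1 had an r of 0.78, and Egr1 and Dusp1 0.75. The pairs of Fosb, Jun, Junb and Ier2 had an r of 0.71 to 0.78, but without the 2 farthest mice that of Fosb and Jun was 0.37, that of Fosb and Junb 0.45 and that of Jun and Junb 0.51. LPSCD replicate 3 had the highest level of each of these 4 among the 16 mice. No pair of members passed an FDR of 0.05 in these mice, in which at most 4 share a group. Without the LPS groups 26 pairs had an r above 0.5. The title number series was not a term in these correlations. In REPOP60 the mean deviation of Egr1, Fos, Junb, Nr4a1 and Dusp1 was 0.27 and 0.32 in replicates 3 and 4 (number beginning with 0). It was -0.46 and -0.14 in replicates 1 and 2 (beginning with 1). In LPSREPOP the series overlapped, with 0.03 and -0.11 (replicates 1 and 4) against 0.17 and -0.08 (replicates 2 and 3).

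The pattern could be followed in single mice. In REPOP7, replicate 3 (re) had 170.7 CPM of Egr1, 49.5 of Fos, 81.6 of Nr4a1, 39.2 of Dusp1 and 35.2 of Junb. It was the highest of the re mice of its group in each of these 5 members. Its title number begins with 1 and that of each other re mouse of REPOP7 with 2. Mouse and number series cannot be told apart there. Replicate 1, of the same suffix and group, had 42.5 CPM of Egr1, 22.5 of Fos, 43.5 of Nr4a1, 21.9 of Dusp1 and 22.8 of Junb, and was the lowest in each.

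REPOP7 replicate 5 (RE) had 26.2 CPM of Egr1, 12.5 of Fos, 24.5 of Nr4a1, 14.2 of Dusp1 and 19.1 of Junb. It was the lowest of the RE mice of its group in each of the 5 members, and in 9 of the 10. In CD, replicate 4 (RE) was the lowest of its suffix in all 10 members, with 31.7 CPM of Egr1, 15.6 of Fos and 29.0 of Nr4a1. In DEP10, replicate 2 was the highest RE mouse in each of the 5 (Egr1 138.6 and Fos 43.8 CPM) and replicate 3 the lowest (91.9 and 24.4 CPM). Jun ran the other way, with replicate 2 the lowest RE mouse and replicate 3 the highest. The title number of DEP10 replicate 3 begins with 3 and that of each other RE mouse of DEP10 with 0. Mouse and title number cannot be told apart there.

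The 5 members Egr1, Fos, Nr4a1, Dusp1 and Junb were chosen for this count after their values were seen, so it has no test. Of the 13 groups of 3 RE mice, 2 had a mouse that was the highest in all 5 and 4 had a mouse that was the lowest in all 5, while in 4 groups 1 mouse was the highest and in 7 groups 1 mouse the lowest in at least 4. Of the 5 groups with several re mice, 1 had a mouse highest in all 5 and 1 a mouse lowest in all 5.

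**Figure D5:**
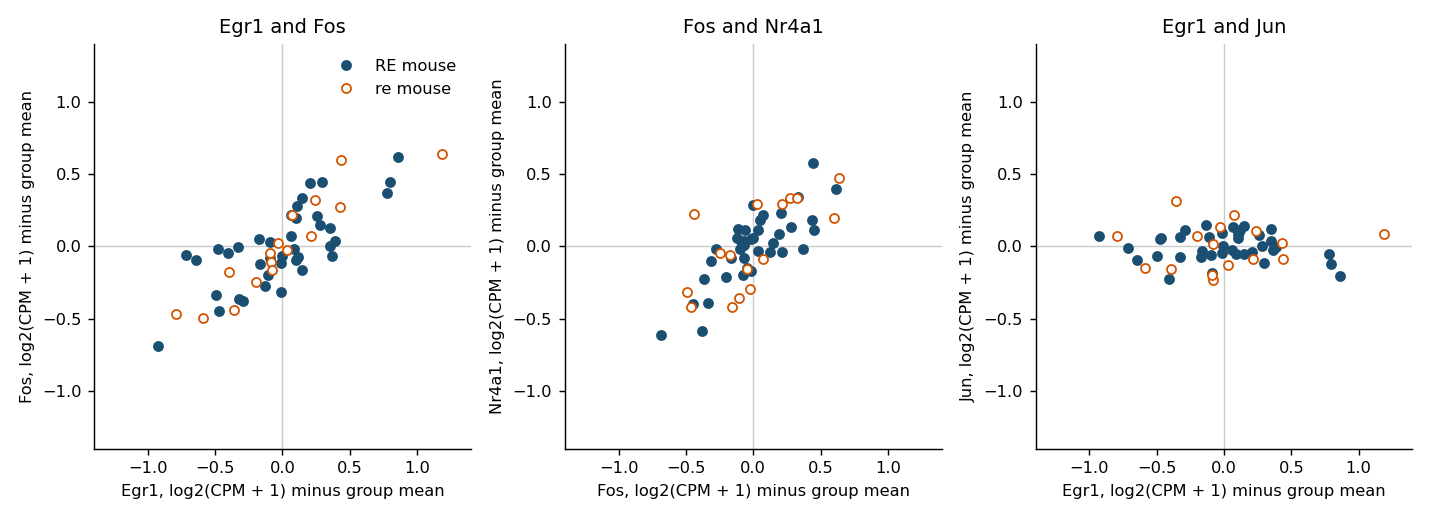
Deviation of single mice from the mean of the mice of their group and suffix, in log2(CPM + 1), for Egr1 against Fos, Fos against Nr4a1 and Egr1 against Jun, with 39 RE mice as filled and 16 re mice as open points. The points of the first and the second panel rise together (r among RE mice 0.74 and 0.80), and those of the third do not (-0.12).

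Other quantities of each mouse were set against Egr1 in the same way. Among RE mice the highest r in size was -0.49, with the summed pigment epithelium markers (rho -0.44, permutation p = 0.0202), followed by -0.47 with Mueller glia and astrocyte markers (rho -0.43, permutation p = 0.0136) and 0.38 with clock genes (rho 0.28, permutation p = 0.0788). The p-values adjusted over the 12 quantities were 0.121, 0.121 and 0.315. Among re mice the highest in size was -0.46 with library size (rho -0.57, permutation p = 0.026, adjusted 0.312). None of these passed the correction, and their part in the level of Egr1 was not tested further.

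The 5 genes outside the set with the pattern most like Egr1 over the 39 RE mice were 1110051M20Rik (r = 0.76), Frmpd1 (0.71), F630040K05Rik (0.71), Scn4a (0.71) and Ccdc51 (0.68). Their FDR was 0.63 or more. By this measure 1 of them was closer to Egr1 than Fos was (0.74).

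A wider list of 46 other activity-regulated early genes was read in the same comparisons. In LPSREPOP vs REPOP60, Vgf, which encodes a secreted neuropeptide precursor, fell by 0.44 (FDR = 0.00186) and Btg2, an antiproliferative gene, fell by 0.23 on the log2 scale (FDR = 0.0315, both edgeR), 0 was higher at an FDR under 0.05 and 0 was a DEG. Egr4, which encodes a relative of Egr1, had a log2 fold change of -0.85 there (FDR = 0.232). Against CD, the endothelial factor gene Klf2 was lower in DEP21 (-1.13, FDR = 0.0152) and in REPOP21 (-0.92, FDR = 0.0186) and Ccn2, a matricellular protein gene, was higher in DEP21 (0.64, FDR = 0.00464), while 0 of the 46 was a DEG in any group. Among the groups of RE mice 1 of 46 passed, the orphan receptor gene Nr4a3 (FDR = 0.0232). By suffix, 15 of the 46 were higher and 10 lower in re mice at an FDR under 0.05, with Egr4 (1.11) and Jund (1.79) as DEGs.

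The same genes were set against Egr1 and Fos from mouse to mouse. Among RE mice, of 39 with a mean of at least 1 CPM, 0 had an r above 0.5 with Egr1, as did 0.463% of all genes, and 3 with Fos, namely Nr4a3 (0.54), Btg2 (0.55) and Sik1 (0.57), as did 1.36% of all genes. Among re mice 6 of 41 did with Egr1 (Egr4, Fosl2, Btg2, Dusp5, Ccn2 and Sik1), against 3.73% of all genes, and 8 with Fos, against 6.15%.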

How the data were processed

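RNA of the retina of 65 mice was sequenced as single reads. The paper's methods name selection of poly-A RNA or removal of rRNA, without saying which was used. Per the paper's methods, the authors aligned the reads to mm10 with HISAT2, and the deposited count of each gene and mouse is the number of reads assigned with HTSeq, without normalization. Strand setting and annotation are not given in the sources used here. The authors also made FPKM values with StringTie, and these served only to compare levels between genes. The members and lists were chosen with earlier results of these data known. Groups came from the sample labels, and each sample is a mouse. Genes were named with GENCODE M21, which holds 50376 of the 50686 identifiers.

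CPM values use TMM library sizes over all 65 mice. Each comparison was a fit of edgeR 4.0.16 under R 4.3.3 (quasi-likelihood F test, TMM, the mice of the 2 groups, title suffix as a covariate where both suffixes occur), over genes counted at least 1 time in a share of 0.5 of either group's mice. The paper used an additive model with a batch term without naming the batches, and the suffix was taken for one. Titles also hold a number, whose first digit was a term in an alternative for the LPS groups. A DEG had an FDR (Benjamini-Hochberg) below 0.01 with a log2 fold change beyond 1 in size. Standard errors were obtained from the fold change and its F statistic. Correlations use log2(CPM + 1) minus the mean of the mice of the same group and suffix, over genes with a mean of at least 1 CPM, with two-sided permutation tests (100000 resamples within groups, seed 1) and FDR over all genes paired with the same member. For a pair of members, that was the member listed first in the opening sentence. Simulated data with 200 changed genes were used to check fits and correlations. Python 3.11.15, NumPy 2.4.6, pandas 2.3.3, SciPy 1.17.1 and Matplotlib 3.10.9 were used.

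Named were the 10 members, of each other list at most 3 genes called in most comparisons or, without a call, with the lowest FDR among groups of RE mice, the 5 genes most like Egr1, and genes of counts of 5 or fewer. Other genes named were chosen after their values were seen. Replicate numbers are taken from the labels. The deviations of same-numbered mice correlated above 0.1 in every pair only in DEP2 vs CD (0.106 to 0.493, over 12346 genes), so the numbers were not taken to pair the mice. The alternatives were DESeq2 1.42.0, edgeR's filterByExpr or no gene filter, RLE normalization, the likelihood ratio test, no suffix term, a replicate block, all 16 groups in one fit, FDR alone and fits without any 1 mouse. For correlations they were a pseudocount of 0.1, RLE, FPKM, Spearman's rho, a threshold of 0.6 and omission of mice. Promoter sequences are from RefSeq on GRCm38.p6, which held 7 of the 10 members.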

Additional observations from a re-analysis of the deposited data

Results flagged for a closer look

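Within groups of 4 to 10 mice, 11 of 140 sets of a member and a group had a mouse whose gap to the others passed Dixon's critical value, where chance flags about 1 in 20 groups. In 5 of the 11 it was the only re mouse of its group. High values were those of Fos in DEP2 replicate 1 (36.5 CPM), Nr4a1 in DEP14 replicate 1 (71.4 CPM), Ier2 in REPOP10 replicate 1 (20.3 CPM) and REPOP14 replicate 1 (21.8 CPM), Npas4 in REPOP10 replicate 1 (10.4 CPM) and REPOP5 replicate 2 (10.1 CPM), Dusp1 in LPSREPOP replicate 1 (25.8 CPM) and Arc in DEP21 replicate 4 (2.28 CPM). Low values were those of Egr1 in DEP21 replicate 3 (35.1 CPM), Fosb in DEP2 replicate 3 (3.76 CPM) and Ier2 in REPOP21 replicate 2 (10.3 CPM). The 3 other mice of DEP21 had between 74.5 and 79.8 CPM of Egr1. Their causes were not tested.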

How the results depend on the processing

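Egr1 in DEP10, which chose the set, is in no count here. The 0 calls in depletion groups, in repopulation groups, in LPSCD vs CD and in LPSREPOP vs LPSCD stayed at 0 under each alternative, and the 1 in LPSREPOP vs REPOP60 became 3 with FDR alone. The 0 calls for the difference of the LPS changes ranged from 0 to 2 without any 1 mouse. By suffix, FDR alone gave 7 calls in place of 0. Among the groups of RE mice, DESeq2 and the likelihood ratio test gave 1 member (Egr1) in place of 0, no gene filter 4 of 10 (with 1534 of 33318 genes called), and leaving out 1 mouse between 0 and 1. Of the pairs of members among RE mice, 5 in place of 8 had an r above 0.5 without the 2 farthest mice. With this count included, and apart from omission of mice chosen for each pair, the alternatives gave between 5 and 10 pairs in RE and 15 and 26 in re mice. The causes were not tested.

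With the replicate number as a block, the depletion groups held 0 calls, LPSREPOP vs REPOP60 held 1, the groups of RE mice 1 (Egr1) in place of 0, and the other comparisons with a block 0. The suffix term and the difference of the LPS changes had no such fit. The title number series as a term, omission of DEP10, of the LPS groups from the re mice, thinning to the smallest library and the refits with the kept dispersion trend were chosen after seeing the data. Depth limits Arc and Fosb most.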
